A study of Homo sapiens with 20 samples.

Results

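The SOX genes encode transcription factors that bind DNA through an HMG box, the domain they share with SRY. The levels of 10 members were followed through the differentiation of human neural progenitor cells into neurons: SOX1, SOX2 and SOX3 of the SOXB1 subgroup, SOX4 and SOX11 of SOXC, SOX5 and SOX6 of SOXD, and SOX8, SOX9 and SOX10 of SOXE. They were found by gene symbol among the coding records of the deposited table, where a record is 1 row for 1 gene. Each of the 10 symbols had exactly 1 coding record and none was merged with another gene, so the family stood for 10 of 20237 coding records and of 38369 records in all.

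The progenitors came from H1 cells, an established line of human embryonic stem cells, and polyadenylated RNA was measured by RNA-Seq in 20 samples over 7 days. There were 3 cultures at each of days 0, 1, 2, 4, 11 and 18, and 2 cultures at day 5, all of the same line, with no genotype or drug contrast between them. At day 0 the cells had grown in medium with FGF, a mitogen for progenitors. From then on FGF was withdrawn and BDNF, a neurotrophin, was added. Cells collected at days 5, 11 and 18 had been moved at day 4 to wells coated with Poly-D-lysine and laminin, so the change of day, the replating and the new surface cannot be told apart between days 4 and 5. The comparison of days asks how the transcriptome moved as progenitors became neurons, and here it is read for the SOX family.

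The values are FPKM, fragments divided by transcript length and by library size, which puts genes of different length on 1 scale. Each record had 1 FPKM per day, an estimate made jointly from that day's cultures, and no value of a single culture was used here. No spread between cultures could therefore be given and no test was made. The depth behind the values is unknown, and a difference between days is a description of the authors' estimates. As a guide to how far records moved over the quietest step, the change from day 1 to day 2 lay between -0.22 and 0.23 on the log2 scale for the central 90% of the 5805 coding records with a mean of 10 to 100 FPKM. It lay between -0.36 and 0.37 for the 5547 records with a mean of 1 to 10 FPKM, and between -0.70 and 0.54 for the 2314 records of 0.1 to 1 FPKM.

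SOXB1 proteins are best known for keeping neural progenitors undifferentiated, and SOXC proteins for acting in newly born neurons. SOXD proteins have no activation domain of their own and modulate other SOX factors. SOXE proteins act in glia, in the neural crest and, in the case of SOX9, also in cartilage and in neural stem cells. One bulk sample pools many cells, so fewer cells of a type and less RNA per cell cannot be told apart in any of the levels below.

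The HMG box is the part of the coding sequence that the members have in common. It is shown for 4 of the members: the progenitor genes SOX1, SOX2 and SOX3 and the neuronal SOX4. The block is 232 bases of coding sequence read from the GENCODE 44 transcripts on GRCh37 (hg19), each from a single exon, with capitals for the 87 bases (37.5%) that were identical in all 10 members. SOX1 lies at chr13:112722107-112722338 on the plus strand, SOX2 at chr3:181430253-181430484 on the plus strand, SOX3 at chrX:139586596-139586827 on the minus strand and SOX4 at chr6:21594924-21595155 on the plus strand.
SOX1: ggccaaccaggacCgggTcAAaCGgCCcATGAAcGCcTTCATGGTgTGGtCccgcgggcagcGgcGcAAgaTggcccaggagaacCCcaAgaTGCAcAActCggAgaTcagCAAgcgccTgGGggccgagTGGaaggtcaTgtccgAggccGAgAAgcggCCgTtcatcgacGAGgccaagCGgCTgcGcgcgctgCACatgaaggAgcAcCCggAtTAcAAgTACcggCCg
SOX2: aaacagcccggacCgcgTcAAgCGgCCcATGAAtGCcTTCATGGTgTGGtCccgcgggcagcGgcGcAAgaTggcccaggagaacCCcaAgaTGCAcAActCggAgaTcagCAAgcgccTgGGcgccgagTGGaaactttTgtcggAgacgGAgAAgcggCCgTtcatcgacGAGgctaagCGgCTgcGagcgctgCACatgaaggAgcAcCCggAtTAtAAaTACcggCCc
SOX3: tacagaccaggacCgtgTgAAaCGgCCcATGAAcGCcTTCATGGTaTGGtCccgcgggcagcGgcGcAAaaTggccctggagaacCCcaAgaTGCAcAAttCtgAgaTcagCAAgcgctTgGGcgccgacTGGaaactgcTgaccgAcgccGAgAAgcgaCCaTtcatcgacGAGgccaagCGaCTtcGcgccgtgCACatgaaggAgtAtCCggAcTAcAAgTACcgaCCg
SOX4: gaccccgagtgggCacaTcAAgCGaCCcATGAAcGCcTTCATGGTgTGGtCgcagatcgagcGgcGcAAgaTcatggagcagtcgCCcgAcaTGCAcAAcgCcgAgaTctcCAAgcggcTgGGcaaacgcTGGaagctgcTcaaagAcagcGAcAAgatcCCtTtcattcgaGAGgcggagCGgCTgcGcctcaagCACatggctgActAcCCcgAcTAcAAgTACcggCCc

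Every difference between these 4 lines falls in lower case. SOX1 and SOX2 were identical at 90.9% of the 232 bases, SOX1 and SOX3 at 87.1% and SOX1 and SOX4 at 66.4%. Across the 10 members, the 8 pairs from the same subgroup shared 81.0 to 90.9% of the 232 bases, and the 37 pairs from different subgroups shared 55.6 to 73.7%. The longest identical stretch between the transcripts of any of the 45 pairs was 89 bases, between SOX1 and SOX2. The longest between subgroups was 27 bases. Only exact stretches were measured, so reads that match 2 members with a few mismatches are not covered.

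**Figure D1:**
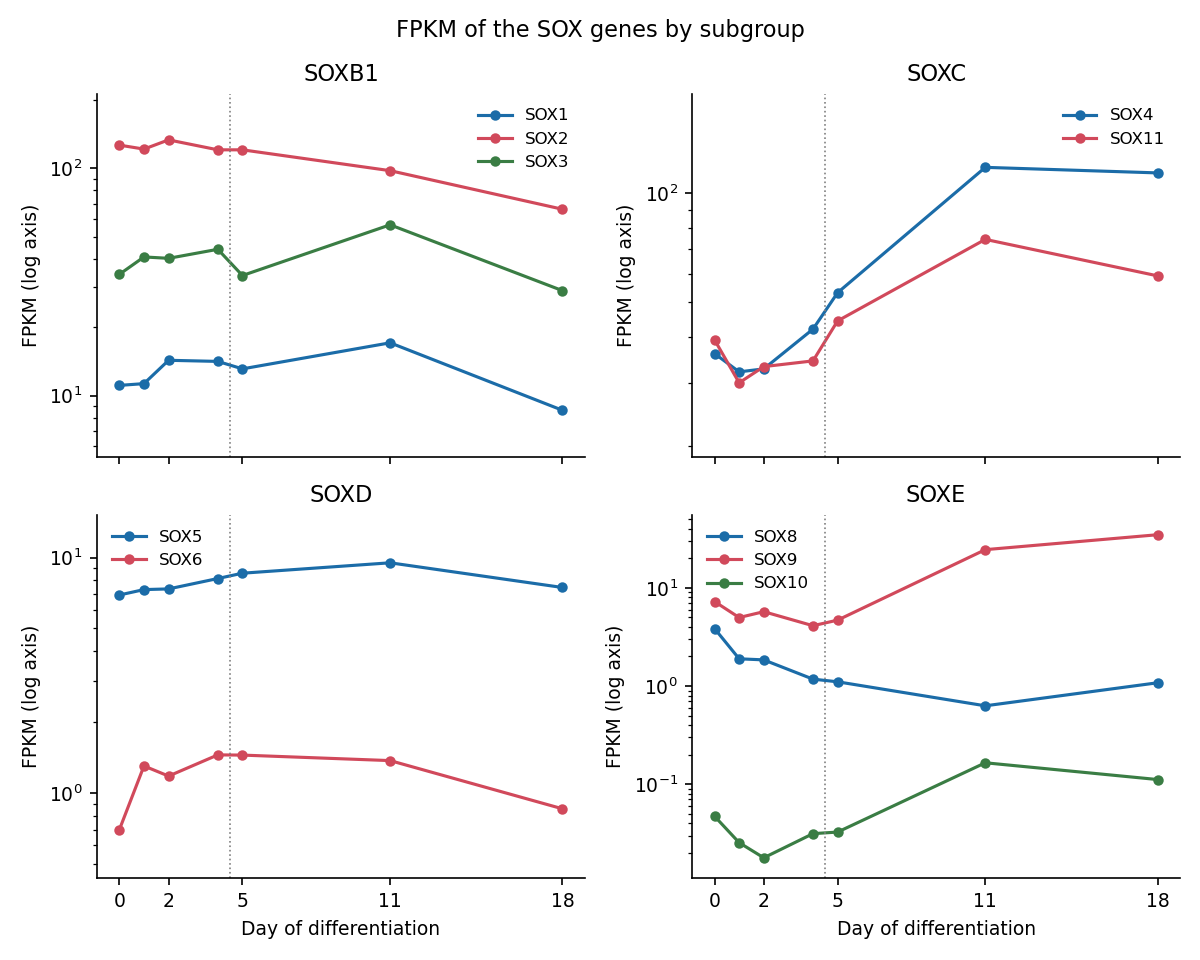
FPKM of each SOX gene (log axis, with its own range in each panel) against the day of differentiation, 1 panel per subgroup and 1 point per authors' estimate, with no error bars because single cultures were not given; the dotted line marks the replating. SOX2 went from 126 FPKM at day 0 to 66.1 at day 18, while SOX4 went from 36.1 to 114 and SOX9 from 7.25 to 34.8.

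SOX2, the SOXB1 gene that also serves pluripotency and neural stem cells, was the most abundant member at days 0 to 5. Its record (3:181429722-181432221, plus strand, a single exon) read 126, 121, 133, 121, 121, 97.6 and 66.1 FPKM in order of day, from the progenitors of day 0 to day 18. The level was flat through the replating and was lowest at the end, 1.92-fold below day 0. Even there SOX2 stood at the 97.7th percentile of all coding records, the same percentile as at day 0.

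The other SOXB1 genes had their highest level at day 11. SOX3, on the X chromosome (X:139585152-139587225, minus strand), read 34.1, 40.7, 40.2, 44, 33.7, 56.4 and 29.0 FPKM over the 7 days. SOX1, an early marker of the neural plate (13:112721913-112726020, plus strand), read 11.1, 11.3, 14.3, 14.1, 13.1, 17.1 and 8.61. Both had their highest FPKM at day 11 and their lowest at day 18, and their profiles went together (Pearson r = 0.87 on log2(FPKM + 0.1) over 7 days, given as a description of points that share libraries). The low place of day 18 depends on the scaling between days, which is taken up below. Relative to the median record, SOX1 and SOX3 were above day 0 at day 18, by 0.20 and 0.32 on the log2 scale. The share of SOX2 in the summed SOXB1 FPKM was 73.7% at the start, 57.1% by day 11 and 63.7% in the end, with SOX3 at 19.9%, 33.0% and 27.9%.

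SOX4, a SOXC gene of differentiating neurons, became the most abundant member. Its single-exon record (6:21593972-21598847, plus strand) read 36.1, 32.1, 32.7, 42.2, 53.1, 118 and 114 FPKM. Levels at days 11 and 18 were both above every earlier day, and day 18 was 3.16-fold above day 0. SOX11, its partner in the subgroup (2:5832799-5841516, plus strand, a single exon), read 39.4, 30.0, 33.2, 34.4, 44.4, 74.6 and 59.2 FPKM. It also had its highest levels at days 11 and 18, but ended 1.5-fold above day 0, and the ratio of SOX4 to SOX11 went from 0.916 to 1.93. Both genes had their lowest FPKM at day 1, where SOX4 was close to its day 2 value (32.1 and 32.7). SOX4 and SOX11 had the highest correlation of any pair of the 9 members with a mean of at least 1 FPKM (r = 0.96 over 7 days), although the strand overlap given further on touches SOX11.

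SOX5 and SOX6, the SOXD genes among the 10 members, were present at lower levels. SOX5 (12:23685232-24715380, minus strand) read 6.93, 7.31, 7.36, 8.14, 8.58, 9.50 and 7.46 FPKM. Its range over the days was at the 10.8th percentile of the 11793 coding records with a mean of at least 1 FPKM. SOX6 (11:15987996-16760190, minus strand) read 0.700, 1.31, 1.18, 1.45, 1.45, 1.38 and 0.859. Its 5 values from day 1 to day 11 all lay above both the first and the last.

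SOX9, the SOXE gene that drives cartilage formation and marks neural stem cells and astrocytes, had the widest range of the 9 members with a mean of at least 1 FPKM. Its record (17:70117161-70122552, plus strand) read 7.25, 4.98, 5.72, 4.11, 4.69, 24.5 and 34.8 FPKM. Days 11 and 18 lay far above the 5 earlier days, and the highest value was 8.45 times the lowest. SOX8 (16:1031808-1036978, plus strand), which overlaps SOX9 and SOX10 in function in glia and neural crest, read 3.85, 1.89, 1.85, 1.18, 1.10, 0.629 and 1.08. SOX8 was highest at day 0 and SOX9 at day 18, and the ratio of SOX9 to SOX8 went from 1.88 at day 0 to 32.2 by day 18, with its maximum of 39 at day 11.

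SOX10, a factor of the neural crest, Schwann cells and oligodendrocytes, was close to 0 throughout. Its record (22:38368319-38383429, minus strand) read 0.0472, 0.0254, 0.0178, 0.0313, 0.0325, 0.165 and 0.112 FPKM. Days 11 and 18 were above the earlier days, yet the mean of 0.0616 FPKM was below the 0.1 FPKM used as the minimum for the background below, and every fold for SOX10 turns on values near or under the added constant.

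Changes between days were computed as differences of log2(FPKM + 0.1). FPKM were lower at day 18 than at day 0 on the whole. Over the 14443 records that averaged at least 1 FPKM the median change was -0.56, and the sum of all FPKM went from 413978 to 251156. The changes below are therefore relative to that median, which was -0.09, 0.04, 0.00, -0.07, -0.15 and -0.28 for the 6 adjacent steps. A gene past 2-fold is one whose relative change was at least 1 in size. No member passed 2-fold between days 0 and 1, where 8.58% of the 14107 coding records with a mean of at least 0.1 FPKM did so in either direction. Of the 10 members, 9 were among these records. The count was also 0 members from day 1 to 2 (0.56% of coding records), from day 2 to 4 (1.3%), across the replating from day 4 to 5 (0.709%) and from day 11 to 18 (4.66%).

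Between days 5 and 11, 3 of the 10 members passed 2-fold and all 3 were higher at day 11, against 7.05% of coding records in either direction. SOX9 had a relative log2 change of 2.51, SOX4 of 1.30 and SOX10 of 1.15. As deposited, without the median removed, the same 3 genes passed, SOX10 only just, at 1.0005. The coding records then split into 361 higher and 645 lower in place of 528 and 467. With a pseudocount of 1 FPKM and the median removed, 2 members passed. SOX11 and SOX3 were just short of 2-fold relative to the median, at 0.90 and 0.89. SOX8 went the other way, at -0.57, and SOX2 at -0.15.

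The first day brought differences below 2-fold. SOX6 had a relative log2 change of 0.91 between days 0 and 1, SOX8 of -0.89 and SOX9 of -0.44, while SOX2 was at 0.04. From day 11 to day 18, SOX8 was at 0.97 and SOX9 at 0.78, and SOX1 and SOX3 were at -0.70 and -0.68. Across the replating the widest members were SOX11 at 0.44, SOX4 at 0.40 and SOX3 at -0.31.

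**Figure D2:**
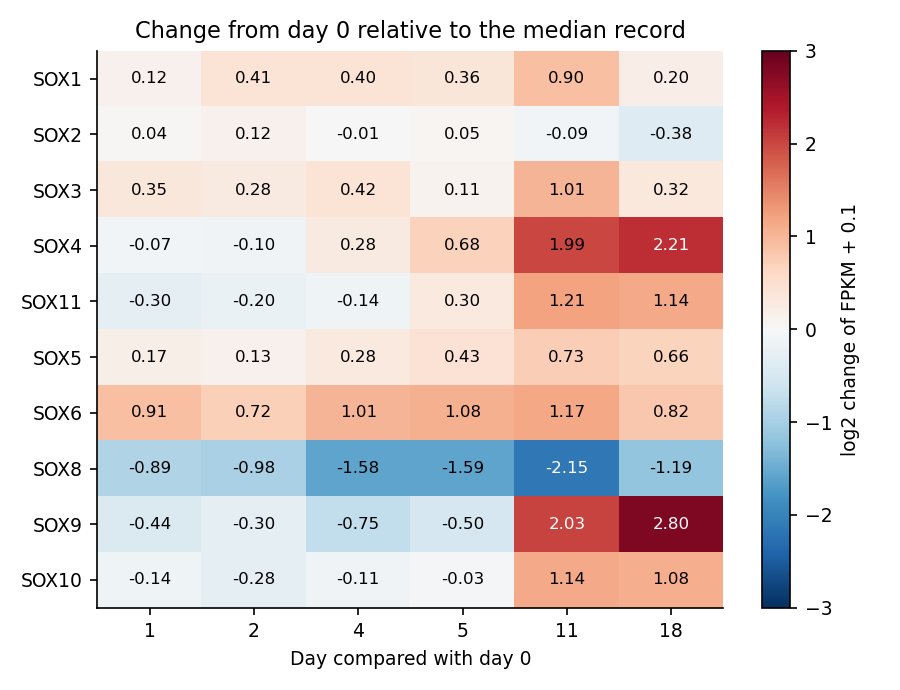
Change of log2(FPKM + 0.1) from day 0 to each later day (columns) for each SOX gene (rows, by subgroup), relative to the median record; red is higher and blue lower than at day 0. The SOX4 and SOX9 rows reach 1.99 and 2.03 at day 11 and 2.21 and 2.80 at day 18, and SOX8 is below 0 at every day.

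Over the whole course, 4 of the 10 members were past 2-fold higher at day 18 than at day 0, against 18.5% of coding records, and 1 was past 2-fold lower, against 12.7%. The split of the coding records depends on the scaling, with 2616 higher and 1795 lower relative to the median and 1498 higher and 3983 lower as deposited. SOX10, with its mean under 0.1 FPKM, is counted among the members but is not one of those 14107 records. The higher ones were SOX9 (relative log2 change 2.80), SOX4 (2.21), SOX11 (1.14) and SOX10 (1.08), and the lower one was SOX8 (-1.19). As deposited only SOX9 and SOX4 stayed past 2-fold higher, at 2.24 and 1.66, with SOX11 at 0.59 and SOX10 at 0.52, and SOX8 was at -1.74. SOX2 was at -0.38 relative and -0.94 as deposited. SOX1 and SOX3 changed sign with the scaling, from 0.20 and 0.32 relative to -0.36 and -0.24 as deposited, so no direction can be given for them. SOX5 and SOX6 were at 0.66 and 0.82 relative, and at 0.10 and 0.26 as deposited. The median over the 10 members was 0.74, beside 0.04 over the coding records, and 8 of the 10 lay above the median record, or 6 of 10 above 0 as deposited.

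**Figure D3:**
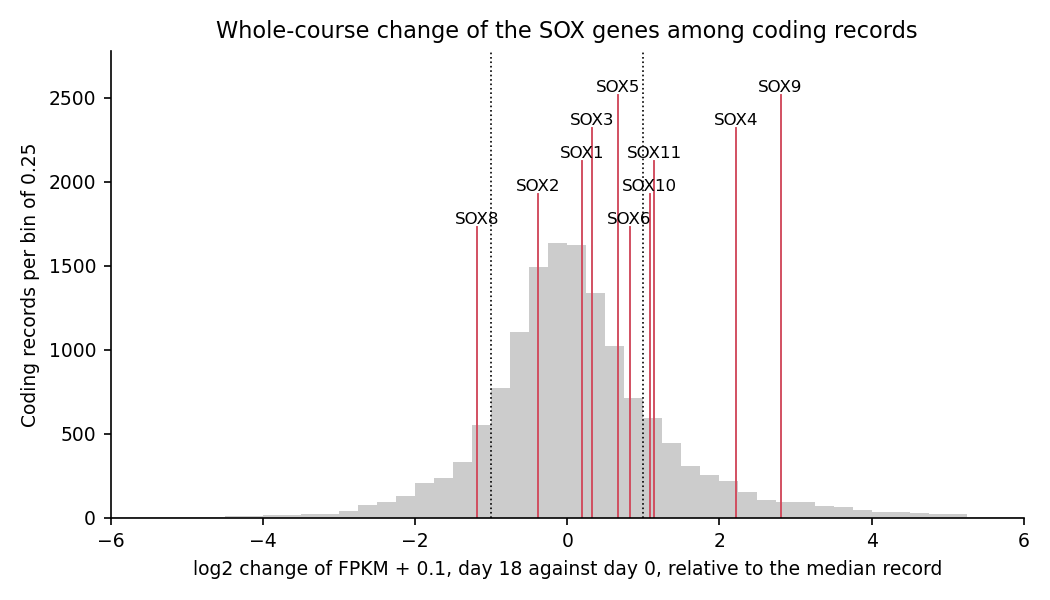
Histogram of the relative log2 change from day 0 to day 18 over 14107 coding records, with 1 vertical red line per SOX gene (line height only separates the names) and dotted lines at 2-fold; a few records lie outside the axis. SOX9 at 2.80 and SOX4 at 2.21 lie at the 96.3rd and 94.2nd percentiles of these records, SOX8 at the 9.78th.

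Among the 10 members the balance moved from SOXB1 to SOXC. Summed FPKM of SOX1, SOX2 and SOX3 were 172, 174, 188, 179, 168, 171 and 104 over the 7 days. Those of SOX4 and SOX11 were 75.4, 62.1, 65.9, 76.6, 97.6, 193 and 173. SOX12, a SOXC gene outside the 10 members, read 23.6, 22.7 and 18.0 FPKM at days 0, 11 and 18. It is in neither the SOXC sum nor the shares and ratios below. The SOXB1 share of the summed FPKM of all 10 genes was 64.6% at the start, 42.8% by day 11 and 32.3% in the end, while the SOXC share went from 28.4% to 48.2% and 53.9%. The ratio of SOXB1 to SOXC was 2.28 at day 0, highest at day 2 with 2.85, below 1 at day 11 (0.888) and 0.599 at day 18. A ratio within a day does not depend on the scaling between days.

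The terms of that ratio moved at different times. At day 11 the SOXB1 sum was 0.997 times that of day 0 and the SOXC sum 2.55 times. From day 11 to 18 the SOXB1 sum was 0.606 times as high and the SOXC sum 0.898 times. The SOXE sum went from 11.2 FPKM at day 0 through 5.32 at day 4 to 36.0 at day 18, from 4.19% to 1.97% and 11.2% of the family, and the SOXD share stayed between 2.59% and 3.57%. Relative log2 changes of the summed FPKM from day 0 to day 18 were 2.24 for SOXE, 1.76 for SOX4 and SOX11, 0.68 for SOX5 and SOX6 and -0.17 for SOXB1. The SOXE sum is mostly SOX9, and the median change of the 3 SOXE genes was 1.08, with SOX8 at -1.19.

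**Figure D4:**
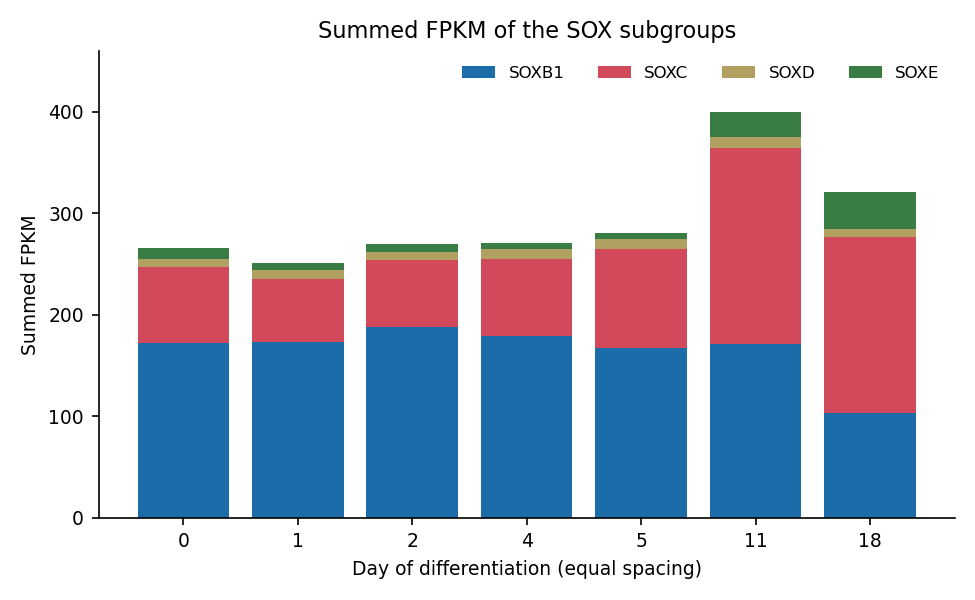
Summed FPKM of the 10 SOX genes as stacked bars, 1 bar per day at equal spacing, coloured by subgroup, with no error bars because single cultures were not given. The whole bar is 266 FPKM high at day 0, 400 by day 11 and 321 in the end, and the SOXC part passes the SOXB1 part at day 11.

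Records on the opposite strand overlapped exons of 8 of the 10 members, in 6 cases a long intergenic noncoding RNA (lincRNA). The study does not state that fragments were counted by strand, so for such pairs the reads of a gene and of its antisense partner may not be told apart. For SOX11 the overlap was complete: linc-SOX11-AS (2:5831981-5842784, minus strand) covered 100% of the SOX11 exon bases. It read 8.69, 6.28, 7.46, 6.62, 8.32, 14.5 and 12.5 FPKM, 18.7 to 22.5% of SOX11 on every day (r = 0.98 over 7 days). The lincRNA thus kept a nearly fixed proportion to SOX11, and neither profile can be assigned to 1 strand from these values.

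Among the 6 lincRNA partners, that of SOX1 was the highest relative to its gene. The lincRNA linc-SOX1-AS (13:112685162-112725472, minus strand) had 98.4% of its exon bases inside SOX1, covering 52.5% of the SOX1 exon bases. It read 22.4, 21.3, 21.9, 29.4, 28.6, 22.5 and 15.9 FPKM, more than SOX1 on every day (132 to 219% of it). The profiles differed at day 11, where SOX1 was highest and linc-SOX1-AS was at about its level of day 0.

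The remaining overlaps were with partners at a low level or over few bases. Antisense records covered 100% of the exon bases of SOX3, 97.9% of SOX4 and 71.3% of SOX9, but their FPKM stayed at 1.02 to 1.66%, 0.156 to 0.555% and 0.351 to 2.69% of the gene. SOX5 shared 2.63% of its exon bases with linc-SOX5-AS, and SOX6 shared 43 bases with C11orf58, which read 27.2 to 51.7 FPKM, at least 2770% of the SOX6 level on every day. SOX10 shared 78 exon bases with POLR2F, which encodes a subunit shared by the RNA polymerases and read 8.24 to 15.3 FPKM, at least 6320% of the SOX10 level on every day. Exons of SOX2 and SOX8 were free of such overlaps.

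**Figure D5:**
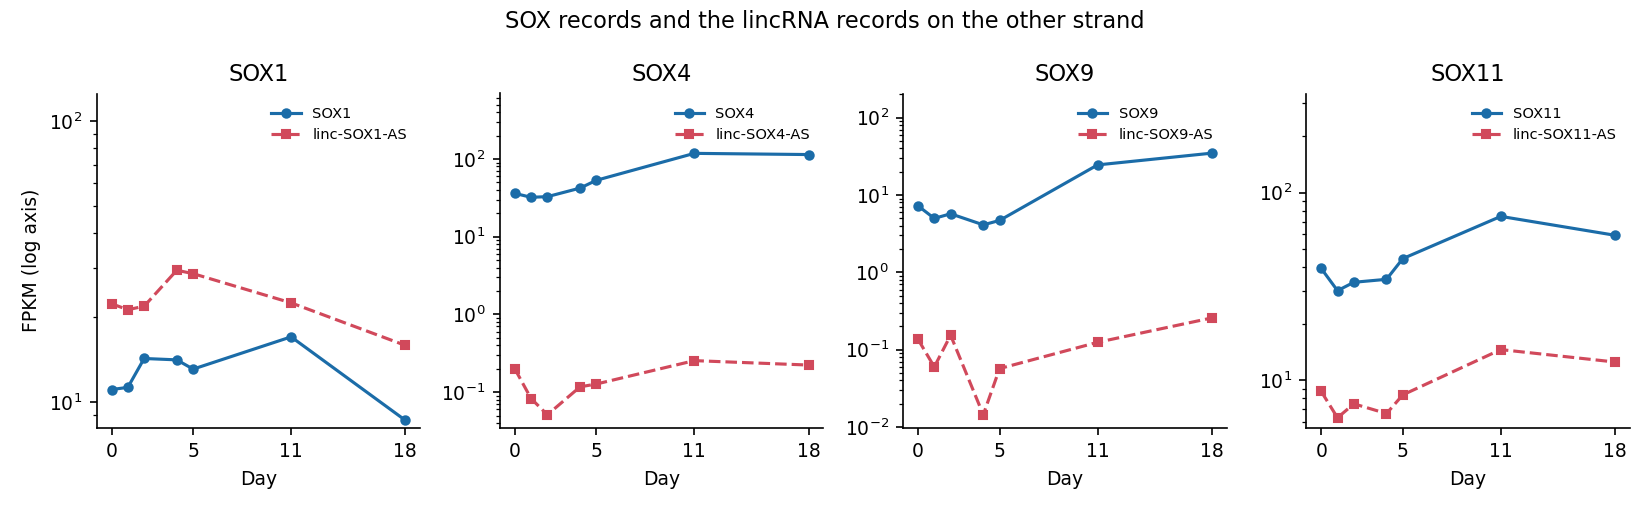
FPKM (log axes with their own range) by day for SOX1, SOX4, SOX9 and SOX11 (blue circles) and for the lincRNA record whose exons overlap each of them on the opposite strand (red squares), with no error bars because single cultures were not given. linc-SOX11-AS follows SOX11 at 18.7 to 22.5% of its level, linc-SOX1-AS lies above SOX1 on every day, and the partners of SOX4 and SOX9 stay under 1 FPKM.

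LincRNA genes were also looked up around each member. Within 500000 bases of 9 of the members there were 27 lincRNA records that reached 1 FPKM on at least 1 day, linc-SOX1-AS and linc-SOX11-AS included, and SOX6 had none. Relative to the median, 9 of them were past 2-fold higher at day 18 than at day 0 and 2 were past 2-fold lower, but as deposited 3 were higher and 6 lower. Of all 3392 lincRNA records that reached 1 FPKM on any day, 20.5% were past 2-fold higher and 9.88% lower relative to the median. The minimum itself admits records through the days on which they are high: 4 of the 9 higher records were under 1 FPKM at day 0, and 1 of the 2 lower ones was under 1 FPKM at day 18, so these counts are a description and nothing is read from them. linc-SOX2 (3:181076991-181389529, plus strand), which ends 40192 bases upstream of SOX2, read 1.43, 2.10, 1.99, 2.70, 2.28, 3.86 and 2.90 FPKM. It was lowest at day 0 and highest at day 11, unlike SOX2 (r = -0.58), and its relative log2 change was 1.53. A record 355 bases downstream of SOX2 on the same strand, linc-ATP11B-8, read 7.65, 10.2, 9.06, 12.2, 10.1, 8.39 and 4.92 FPKM and was lowest at day 18, as SOX2 was (r = 0.81).

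By SOX4, linc-HDGFL1-2 read 3.95 FPKM at day 0, 8.86 at day 11 and 7.69 at day 18 (relative log2 change 1.5, r = 0.93 with SOX4). By SOX11, linc-RSAD2-3 went from 2.53 to 6.61 and 5.06 (1.53, r = 0.95), and linc-RSAD2-2 from 0.0440 to 0.633 and 1.25 (3.79). A linc-SOX9-AS record (17:70067058-70233344, minus strand) that spans SOX9 without touching its exons went from 0.278 to 0.859 and 1.13 FPKM (2.26, r = 0.97), whereas linc-SOX9-3, 499530 bases away, went from 94.1 to 38.4 and 34.2 (-0.90). linc-SOX11-AS itself was at 1.07.

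Near SOX1, linc-SPACA7-3 was past 2-fold higher (1.30, with 5.86 FPKM at day 0 and 9.86 at day 18) and linc-SPACA7-1 past 2-fold lower (-3.52, from 2.55 to 0.0562 FPKM), while linc-ANKRD10-2 peaked at day 11 with 11.4 FPKM, as SOX1 did (r = 0.91). Near SOX5, linc-BCAT1-AS was at -1.96, from 8.10 to 1.34 FPKM. Near SOX10, linc-SLC16A8-AS was at 2.28 and a linc-TRIOBP-AS record at 1.41, with highest values of 1.24 and 1.33 FPKM. Near SOX3, linc-SPANXF1-3 was at -0.94, from 47.1 to 16.6 FPKM. None of the 6 records near SOX8 was past 2-fold.

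For each of the 9 members with a mean of at least 1 FPKM, the 3 coding records with the most similar profile were looked up by Pearson r over the 7 days, out of 11784 records. With 7 points many records come close, and the number with r over 0.9 ranged from 12 for SOX3 to 2915 for SOX2. The SOX2 profile was thus a common one, led by SLC30A7, KIAA0319L and ARHGAP10 (all at r of at least 0.99). SOX3 had the fewest, with ACBD7 (0.98), CDKN2C (0.95), which encodes a cyclin-dependent kinase inhibitor, and ZNF431 (0.95). SOX1 was nearest to KLHL15 (0.98), ZNF764 (0.97) and RASA1 (0.97).

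SOX11 was nearest to ARHGAP21 (r above 0.99), to the merged record that holds TUBB3, the neuronal beta-tubulin, together with TUBB2C and MC1R (0.99), and to FMN2, a formin that nucleates actin (0.99). SOX4 was nearest to SAMD5, TTC3 and GATS (r from 0.99 to above 0.99), and 562 records exceeded 0.9. SOX9 was nearest to CYTSB, SHF and FXYD6 (all at 0.99). For SOX6 the nearest was HES3, a HES family repressor of neural progenitors (0.99), which started at 3.02 FPKM, stood at 17.9 by day 1 and 23.8 by day 4 and ended at 5.32. Close to SOX5 were a merged record of ZNF197 and ZnF20 and TSPYL1 (both 0.98). SOX8 was nearest to a record with no symbol, to KIAA1199 and to NACC2 (all 0.99).

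Among the members themselves, SOX4 and SOX9 had r = 0.90 and SOX9 and SOX11 r = 0.87. SOX2 ran against SOX9 (-0.89) and SOX4 (-0.85), and SOX5 against SOX8 (-0.87). All these values come from the same 7 estimates.

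Of 8 further SOX genes, 5 had a mean of at least 0.1 FPKM, with a median relative log2 change of -0.13 from day 0 to day 18. Values in parentheses from here on are such relative log2 changes unless named otherwise. SOX21, which counteracts SOXB1 activity, read 38.2 FPKM at day 0, 42.6 at day 11 and 24.0 at day 18, and SOX12, the remaining SOXC gene, read 23.6, 22.7 and 18.0. SOX12 was lower at day 18 than at day 0 as deposited (-0.38) and higher relative to the median (0.18), unlike SOX4 and SOX11, which were higher on both scales. SOX7 of the SOXF subgroup was the only one of the 5 past 2-fold, from 15.4 to 4.24 FPKM (-1.27). SOX13, the remaining SOXD gene, went from 10.6 to 6.28 and SOX15 from 1.25 to 0.742. The means of SOX14, SOX18 and SOX30 were below 0.1 FPKM, and SOX14 was listed at 0 on every day.

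Of 10 neural progenitor genes, all 10 had a mean of at least 0.1 FPKM. From day 0 to day 18, 3 were past 2-fold higher, 1 lower and 6 neither, with a median relative change of 0.25 beside 0.04 for coding records. HES5, a Notch target, went from 1.95 to 20.0 FPKM (3.86), PAX6 from 4.31 to 10.4 (1.81) and LHX2 from 0.111 to 0.445 (1.93). PROM1 went from 38.8 to 5.06 (-2.36). NES, which encodes the progenitor filament nestin, read 514 FPKM at day 0 and 180.4 at day 18 (-0.95), and like SOX2 it was lowest at the end.

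Of 10 early neuron genes, 8 were past 2-fold higher and 0 lower, with a median of 2.72. STMN2, a microtubule regulator of growing axons, had the largest value of the list (5.05) and read 32.3, 45.2, 68.1, 131, 238, 517 and 727 FPKM. It was higher at each later day, whereas the FPKM of SOX4 and SOX11 were lower at day 1 than at day 0. Relative to the median record, which was at -0.09 for that step, SOX4 was at -0.07 and SOX11 at -0.30. The list was mixed at that step. As deposited, TUBB3 (382 to 299 FPKM), GAP43 (193 to 55.7) and, by little, TAGLN3 (48.9 to 46.3) were also lower at day 1. The other genes of the list were higher. ELAVL4 was at 4.89 and DCX at 4.54, with 5.47 FPKM before differentiation, 89.98 by day 11 and 88.1 in the end. The 2 that did not pass were the merged TUBB3 record (0.95) and GAP43 (0.41). Summed FPKM of the list ranged from 628 at day 1 to 1868 at day 18.

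SOX9 is shared by glia, crest and cartilage, and the lists for these cells gave different counts. Of 10 radial glia and astrocyte genes, 7 had a mean of at least 0.1 FPKM, with 2 past 2-fold higher, 2 lower and a median of -0.14. SLC1A3, the glial glutamate transporter, went from 16.2 to 63.1 FPKM (2.51) and NFIA from 0.237 to 2.00 (3.20), whereas GJA1 went from 78.3 to 15.0 (-1.82) and TNC from 70.9 to 14.3 (-1.75). GFAP, the defining astrocyte filament, was at most 0.187 FPKM, and ALDH1L1 at most 0.0364. The summed FPKM of the list ranged from 72.7 to 184. Of 8 cartilage genes, 5 had a mean of at least 0.1 FPKM, with 3 past 2-fold lower, 1 higher and a median of -1.21. COL2A1, a direct target of SOX9 in cartilage, read 103, 61.7, 52.7, 47.4, 41.4, 23.6 and 6.70 FPKM, lowest where SOX9 was highest, and MATN3 went from 7.72 to 0.235 (-3.99). COL9A1 was also lower (-1.21), COL11A2 was higher (1.90), and ACAN, COMP and HAPLN1 had means below 0.1 FPKM. What part other cell types have in the SOX9 values was not tested.

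For SOX10 and SOX8 the oligodendrocyte and neural crest lists were read. Of 10 oligodendrocyte genes 9 had a record, and the means of OLIG1, OLIG2, NKX2-2, MAG and MOG were below 0.1 FPKM. Of the other 4, none was past 2-fold lower relative to the median record, and the median change was -0.33. The summed level of the list ranged from 30.9 to 37.6 FPKM. Of 10 neural crest and Schwann cell genes, 8 had a mean of at least 0.1 FPKM, with 3 past 2-fold higher, 1 lower and a median of 0.01. TFAP2A went from 0.0415 to 2.67 FPKM (4.85), NGFR from 0.709 to 13.1 (4.59) and EDNRB from 3.24 to 18.5 (3.04), while SNAI2 went from 13.3 to 0.525 (-3.86). FOXD3 had a mean below 0.1 FPKM. The summed level ranged from 50.1 FPKM at day 0 to 98.1 at day 11. Most of it was PAX3, at 31.0 and 62.3 FPKM on those days, which was not past 2-fold from day 0 to day 18 (0.41).

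SOX2 works with POU5F1 and NANOG in pluripotent cells. Here the means of POU5F1, NANOG, ZFP42 and TDGF1 were below 0.1 FPKM, so 4 of 7 pluripotency genes were near 0 while SOX2 stood at 66.1 to 133 FPKM. Of the other 3, LIN28B went from 14.3 to 2.55 FPKM (-1.88) and DPPA4 from 9.72 to 2.25 (-1.51), both past 2-fold lower, and DNMT3B was at -0.97. The median was -1.51.

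Of 10 genes for partners and cofactors of SOX proteins, all with a mean of at least 1 FPKM, 2 were past 2-fold higher and 1 lower, with a median of 0.22. The POU factors that pair with SOX2 and SOX11 in neural cells were expressed throughout: POU3F2 read 86.2 FPKM at day 0 and 69.1 at day 18 (0.24) and POU3F3 39.6 and 39.4 (0.55). POU3F1 went from 6.59 through 1.62 at day 1 to 13.8 (1.61) and TLE1, a corepressor whose record was merged with another symbol, from 19.1 to 30.8 (1.24). GMNN, which encodes the replication inhibitor geminin, went from 61.1 to 8.04 (-2.35). CHD7, a chromatin remodeller that binds SOX2, was at 0.02. As deposited, the counts of higher and lower genes were 1 and 1 here, 0 and 3 for pluripotency, 3 and 3 for neural crest and Schwann cells, 1 and 3 for cartilage, 2 and 3 for radial glia and astrocytes, 7 and 0 for early neurons and 3 and 2 for neural progenitors, and 2 oligodendrocyte genes were lower.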

How the data were processed

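Polyadenylated RNA of H1-derived neural progenitors was sequenced in 20 samples over 7 days. Per the study's methods and the labels, the authors made TruSeq libraries, mapped the reads on hg19 (TopHat2), built transcript models (Cufflinks) and estimated FPKM (Cuffdiff2). Program versions, and whether fragments were counted by strand, are not given in the sources used here. The deposited FPKM matrix gives every record 1 joint estimate for each day. It has 0 columns for single cultures. A further deposited table gives coordinates, exons and symbols, which were used, and the authors' own comparisons between days (fold changes, test statistics, p-values and q-values), which were not.

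Samples were grouped by the day in their titles. Changes were differences of log2(FPKM + 0.1) minus the median over the 14443 records with a mean of at least 1 FPKM. A change of at least 2-fold was counted. Correlations used log2(FPKM + 0.1) without the median removed. With 1 value per day no test, error or interval could be computed, and the depth is unknown. The computation was tested on simulated data. For each symbol the coding record with the highest mean was used. The HMG block was found by aligning coding sequences with MAFFT 7.526. Python 3.11.15, pandas 2.3.3 and NumPy 2.4.6 were used.

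The genes named were the 10 members, the 3 records most like each member with a mean of at least 1 FPKM, every lincRNA within 500000 bases that reached 1 FPKM, and from each list the genes with the largest changes or needed to name a small count. Other members of a list were named after their values were seen. A few genes that these rules select are not reported here. The members and lists were chosen with earlier results of these data known. Alternatives were another pseudocount (1 or 0.01), no recentring, other medians, a fold of 1.5, summed records and each day left out.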

Additional observations from a re-analysis of the deposited data

How the results depend on the processing

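No paired analysis was possible because the deposited matrix gives 1 estimate per day and no values of single cultures, and for the same reason no culture could be left out. Of 60 alternative values for the changes of the 10 genes from day 0 to day 18, 54 kept their direction and their side of 2-fold. Summing the coding records of a symbol gave 10 of the 60 and could not differ from the main value. Each symbol had 1 coding record. As deposited SOX1 was at -0.36 and SOX3 at -0.24, both reversed, and SOX10 at 0.52 and SOX11 at 0.59 were under 2-fold. With a pseudocount of 1 FPKM, SOX8 at -0.74 and SOX10 at 0.57 were under 2-fold too. The number of members past 2-fold from day 0 to 18 was then 3 in place of 5, both as deposited and with a pseudocount of 1. A fold of 1.5 gave 2 members from day 0 to 1, 1 from day 2 to 4, 5 from day 5 to 11 and 4 from day 11 to 18, or 12 in all in place of 3. A pseudocount of 0.01 gave 1 from day 11 to 18, and a pseudocount of 1 gave 2 in place of 3 from day 5 to 11. The SOXB1 change from day 0 to 18 was -0.17 by summed FPKM but 0.20 as the median of its members, a reversal; SOX2 made up most of that sum (73.7% at day 0). For SOXE the same median was 1.08 in place of 2.24. Of the 27 most similar records, 24 stayed among the nearest 3 with a pseudocount of 1 but only 4 without day 18, with r at least 0.92 there and at least 0.89 over all the days left out in turn, so their order is unstable. The depth is unknown.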
